A study of Mus musculus with 37 samples.

Results

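The cell cycle genes described here are 43 genes chosen by symbol, 20 that act in DNA replication, 20 that act in mitosis and the 3 D-type cyclins, out of 25239 gene rows in a table of read counts from mouse embryo hearts at stage E10.5. All 43 were found in the table, and all 43 passed the filter on low counts, as did 15046 genes in all. The lowest count of any of the 43 in any library was 413, for Ccne1, so none of them depended on the filter. Measurements came from bulk paired-end RNA sequencing, with 37 libraries, each labelled as 1 heart. The embryos came from fathers with the Stra8-iCre transgene, which drives Cre recombinase in the male germ line, and 1 Nipbl Flox allele, mated to mothers with a Cre-recombinase gene in 1 allele of Isl1. Per the series' design text, sperm of such fathers carry either Nipbl Flox, counted as a wild-type allele, or Nipbl FIN, a null allele, and the Isl1 Cre allele leaves the embryo haploinsufficient for Isl1. This gave 10 hearts labelled Nipbl +/+; Isl1 +/+ (called wild_type here), 9 labelled Isl1 +/- (Isl1_het), 9 labelled Nipbl +/- (Nipbl_het) and 9 labelled Nipbl +/-; Isl1 +/- (double_het). The Isl1_het and double_het hearts therefore also carry a Cre recombinase at the Isl1 locus, which the other 2 groups lack. Nipbl codes for the protein that loads the cohesin ring onto chromosomes, and Isl1 for a transcription factor of heart progenitor cells. The comparison asks whether loss of 1 copy of either gene, or of both, goes with a different level of the transcripts that dividing cells use.

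Before a cell copies its DNA, the proteins Cdc6 and Cdt1 load the ring-shaped Mcm2 to Mcm7 helicase onto replication origins, and cyclin E with its kinase then helps to start synthesis. In S phase, DNA polymerase alpha with its primase lays down primers, the clamp Pcna holds the replicating polymerases, and Rrm1, Rrm2 and Tyms supply deoxynucleotides. Many of these genes are transcribed under E2F factors, which D-type cyclins release by way of the retinoblastoma protein. The mitosis genes come on later, in G2 and M phase, largely through the DREAM and MuvB complexes, B-Myb and Foxm1, which act on promoters with a cell cycle genes homology region (CHR) and CCAAT boxes. In the midgestation heart, cardiomyocytes still divide while they contract, and blood cells inside the chambers divide as well.

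The promoters of these genes were searched for 3 motifs. RefSeq sequences of assembly GRCm38.p6, from 250 bases before to 50 bases after the annotated start, were matched for 33 of the 43 genes (17 replication genes, 15 mitosis genes and Ccnd3). For some genes, Mcm7 and E2f1 among them, the start used lies inside the gene. The E2f1 window, on the minus strand, reaches to 154569676, and the gene to 154569892. For such genes the matches describe that window and not the region before the outer end of the gene. The CHR, searched as TTTGAA or TTCGAA on both strands, was present in 12 of 15 mitosis promoters (80%) and in 3 of 17 replication promoters (17.6%), against 19.5% of all 27025 promoters of the same length. The CCAAT box, searched as CCAAT on both strands, was present in 14 of 15 mitosis promoters (93.3%) and 11 of 17 replication promoters (64.7%), against 38% of all. An E2F motif, searched as TTTCCCGC, TTTCGCGC, TTTGCCGC or TTTGGCGC on both strands, was present in 7 of 17 replication promoters (41.2%) and in 1 of 15 mitosis promoters (6.67%), against 2.33% of all. These counts describe letters in a window and not factor binding. The wider lists of cell cycle genes introduced further on had the CHR in 26 of 37 mitosis promoters (70.3%) and 7 of 35 replication promoters (20%). Their E2F motif was in 2 of 37 (5.41%) and 8 of 35 (22.9%), and their CCAAT box in 25 of 37 (67.6%) and 18 of 35 (51.4%). Of the 21 promoters of wider regulators, 7 had the CHR (33.3%), 10 the CCAAT box (47.6%) and 8 the E2F motif (38.1%). Promoters of Mcm6 and Mcm7 are shown because these helicase genes had the lowest differences of their family in the Nipbl_het hearts, and those of Cdk1, Ccnb2 and Kif11 because they show the layout of the mitosis genes; capitals mark every match to the 3 motifs, some of which overlap.
Mcm6, chr1:128359656-128359955, minus strand: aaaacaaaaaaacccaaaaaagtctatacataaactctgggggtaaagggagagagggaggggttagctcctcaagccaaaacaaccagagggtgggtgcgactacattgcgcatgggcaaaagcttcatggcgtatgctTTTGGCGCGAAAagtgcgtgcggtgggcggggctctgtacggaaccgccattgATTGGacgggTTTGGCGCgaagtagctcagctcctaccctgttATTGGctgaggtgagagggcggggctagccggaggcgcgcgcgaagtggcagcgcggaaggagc
Mcm7, chr5:138171834-138172133, minus strand: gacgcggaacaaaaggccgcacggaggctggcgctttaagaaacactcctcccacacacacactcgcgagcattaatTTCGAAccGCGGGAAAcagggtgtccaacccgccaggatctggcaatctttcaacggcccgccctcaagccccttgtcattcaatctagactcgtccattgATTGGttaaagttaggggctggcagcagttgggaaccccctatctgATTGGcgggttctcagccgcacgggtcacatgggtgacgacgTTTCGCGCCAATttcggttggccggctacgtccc
Cdk1, chr10:69352863-69353162, minus strand: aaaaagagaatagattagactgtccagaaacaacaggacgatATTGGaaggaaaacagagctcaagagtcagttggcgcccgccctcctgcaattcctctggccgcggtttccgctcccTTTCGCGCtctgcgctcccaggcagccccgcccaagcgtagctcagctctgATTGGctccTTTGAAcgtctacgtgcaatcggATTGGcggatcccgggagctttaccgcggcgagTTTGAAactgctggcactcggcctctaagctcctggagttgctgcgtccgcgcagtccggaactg
Ccnb2, chr9:70421505-70421804, minus strand: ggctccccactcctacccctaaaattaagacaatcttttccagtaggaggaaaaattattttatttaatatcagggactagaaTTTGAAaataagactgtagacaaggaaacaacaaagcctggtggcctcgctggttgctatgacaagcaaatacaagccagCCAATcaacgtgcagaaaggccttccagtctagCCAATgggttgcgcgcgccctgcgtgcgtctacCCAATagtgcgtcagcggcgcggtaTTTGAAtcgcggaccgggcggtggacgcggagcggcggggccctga
Kif11, chr19:37376132-37376431, plus strand: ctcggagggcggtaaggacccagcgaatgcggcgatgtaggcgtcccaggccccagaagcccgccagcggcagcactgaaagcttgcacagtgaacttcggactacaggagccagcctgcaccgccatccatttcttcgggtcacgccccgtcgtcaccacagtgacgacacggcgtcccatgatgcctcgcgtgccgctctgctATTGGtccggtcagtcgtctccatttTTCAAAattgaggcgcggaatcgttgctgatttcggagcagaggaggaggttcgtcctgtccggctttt

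In the Mcm6 promoter the 3 E2F matches began 110, 106 and 47 bases before the start, and no CHR was found. In the Mcm7 promoter, E2F matches began 165 bases before and 16 bases after the start, the latter overlapping a CCAAT match that begins 23 bases after it. Of the 5 helicase genes with a matched promoter (all but Mcm4), Mcm7 was the 1 gene with all 3 motifs, its CHR beginning 173 bases before the start. In the Cdk1 promoter, CHR matches began 71 and 15 bases before the start, next to CCAAT boxes at 80 and 48 bases before it. Kif11 had its CHR at 19 bases and its CCAAT box at 45 bases before the start. In Ccnb2 a CHR began 4 bases after the start, with CCAAT boxes at 87, 54 and 21 bases before it.

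Libraries held 23356831 to 50974736 counted reads. A second label of each heart begins with IVF and a number, without saying what it stands for, and these numbers divide the hearts into 5 sets; 3 sets hold all 4 genotypes, set 1 holds 3 wild_type and 3 Isl1_het hearts, and set 7 holds 1 double_het heart. Cardiomyocyte markers were high in every library (10 of 10 markers measured, 31200 to 48400 CPM summed, CPM being counts scaled to the TMM library size), and every library contained red cell transcripts, from 488 to 106000 CPM over 6 of 10 erythroid markers; the other 4, the adult globins Hba-a1, Hba-a2, Hbb-bs and Hbb-bt, were at or near 0. Liver markers (4 of 7 measured) summed to 19.1 CPM or less except in Nipbl_het replicate 9, at 345. Nipbl stood at 60.0 ± 10.1 CPM (SD, n = 10) in wild_type, 61.5 ± 5.88 (n = 9) in Isl1_het, 39.3 ± 13.8 (n = 9) in Nipbl_het and 38.1 ± 7.41 (n = 9) in double_het. The library labelled Nipbl_het replicate 2 went against its label, with 72.4 CPM of Nipbl, while the other 8 of its group lay at 27.1 to 44.9. Isl1 was scarce, at 7.37 ± 2.24 CPM (SD, n = 10) in wild_type and 6.28 ± 1.76 (n = 9) in Isl1_het, which overlapped, so it could not check the labels. In Nipbl_het it was at 13 ± 2.82 CPM (n = 9) and past the threshold used below (log2 change of 0.79, edgeR adjusted p = 0.0252), and in double_het at 9.5 ± 3.51 (n = 9, log2 change of 0.32, adjusted p = 0.591). Values without the library labelled Nipbl_het replicate 2 are given beside many, though not all, of the results for which it lay far from its group. Nothing says whether hearts came from separate litters, so p-values measure the spread between these libraries.

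Cell cycle transcripts were abundant in wild-type hearts. Per kilobase of exon, the median of the 20 mitosis genes was 37.4 CPM per kb and that of the 20 replication genes 26.9, against 4.34 over 14765 tested genes with a known length. Pcna, the sliding clamp, had the highest level at 118 ± 21.1 CPM per kb (SD, n = 10), the 97th percentile of tested genes. It was followed by the ubiquitin-conjugating enzyme Ube2c at 91.7 ± 20.2 and the mitotic checkpoint target Cdc20 at 82.9 ± 9.72. The wild-type libraries of Ube2c (63.6 to 136) overlapped with those of Pcna (103 to 174) and of Cdc20 (72.4 to 101). The ribonucleotide reductase subunit Rrm2 (76.5 ± 5.01), cyclin B2 (Ccnb2, 74.9 ± 8.16) and Mcm7 (63.1 ± 6.87) came next. The 3 D-type cyclins lay close together at 62.7 ± 10.7 (Ccnd3), 58.8 ± 9.36 (Ccnd2) and 46.0 ± 4.34 (Ccnd1), with overlapping ranges. Of the cyclin E genes, Ccne1 (23.5 ± 2.42) was above Ccne2 (12.2 ± 0.75) in every wild-type library, the lowest of the first being 20.1 and the highest of the second 13.7. The lowest 3 were the kinetochore proteins Cenpf (7.26 ± 0.99) and Cenpe (6.39 ± 1.03) and the polymerase alpha subunit Pola1 (3.70 ± 0.569). Lengths are those of all annotated exons joined, so genes with long unused exons are understated.

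In Nipbl_het hearts, 42 of the 43 genes had an estimate below wild_type, and 1 of them, Mcm7, passed the test. The background for that comparison was 47.8% of 15046 tested genes with an estimate below 0, 1.71% past the threshold in either direction and 0.518% past it as lower. The threshold is an adjusted p under 0.05 over all tested genes, from edgeR's quasi-likelihood fit with genotype and set as terms. The median log2 change was -0.158 over the 20 replication genes, -0.087 over the 20 mitosis genes and -0.275 over the 3 D cyclins, beside 0.008 over all tested genes. Without the library labelled Nipbl_het replicate 2 these medians were -0.122, -0.080 and -0.139, beside -0.010, 41 of 43 estimates were below 0, and Mcm7 was again the 1 gene past the threshold, beside 2.72% of all tested genes. Within the sets that hold all genotypes, Nipbl_het minus wild_type was below 0 for 35 of 43 genes in set 2, 27 in set 5 (25 without that library) and 31 in set 6, beside 51%, 48.7% and 51.3% of all tested genes. The median of the replication genes was -0.15, -0.20 (-0.06 without that library) and -0.07 in these sets. That of the mitosis genes was -0.13, 0.04 (0.05 without it) and -0.10, so it lay above 0 in set 5, which holds 4 of the 9 Nipbl_het hearts. The genes varied together between hearts, as given further on, so these counts of estimates below 0 are not counts of independent observations. All 43 differences were small: no estimate was beyond 0.30 on the log2 scale in either direction. In bulk hearts, fewer dividing cells and less of these transcripts per cell cannot be told apart. Some markers of other cells differed between the groups as well. The 6 epicardial markers, Wt1 and Tbx18 among them, summed to 218 to 413 CPM in wild_type (median 366), 262 to 483 in Isl1_het (median 451), 351 to 539 in Nipbl_het (median 451) and 455 to 599 in double_het. In Nipbl_het all 6 had estimates above 0 (median 0.202) and 1 passed. In double_het 4 of 6 passed as higher (median 0.519), beside 2.6% of all tested genes past the threshold there. The 10 cardiomyocyte markers had a median sum of 41700 CPM in wild_type (33200 to 48400) and 36900 in Nipbl_het (32000 to 38900), with 8 of 10 estimates below 0 (median -0.186) and none past the threshold. This was not particular to Nipbl_het. In Isl1_het the median sum was 38400 CPM (32800 to 46800), with 9 of 10 estimates below 0 (median -0.157). In double_het it was 37300 CPM (31200 to 43900), with 8 of 10 below 0 (median -0.117). No cardiomyocyte marker passed in these groups either. The 6 mesenchyme markers had a median sum of 771 CPM in wild_type (424 to 959) and 613 in Nipbl_het (555 to 966), with no call in Nipbl_het and 1 lower for Nipbl loss averaged. In the averaged comparison 4.02% of all tested genes passed. Of 6 neural markers, with median sums of 334 and 330 CPM, 1 passed as higher in Nipbl_het and 2 for Nipbl loss averaged. Most of this list went the other way, with 4 of 6 estimates below 0 in each comparison (medians -0.156 and -0.091). No endothelial or liver marker passed in either comparison. Of the 4 liver markers tested, 0 had an estimate below 0 in Nipbl_het (median 1.746), and 3 had an edgeR unadjusted p under 0.05. That group includes Nipbl_het replicate 9, whose liver markers summed to 345 CPM. The sums of erythroid markers are given with the erythroid term further on. The part of these cells in the lower estimates was not tested, apart from the fit with the erythroid level.

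Mcm7, which completes the Mcm2 to Mcm7 helicase ring and lies at chr5:138164583-138172111 in the RefSeq annotation of GRCm38.p6, had 248 to 354 CPM in wild_type (median 272), 245 to 300 in Isl1_het (median 264), 209 to 260 in Nipbl_het (median 245) and 228 to 281 in double_het (median 251). All 9 Nipbl_het hearts were below the wild_type mean and 6 of 9 were below every wild_type heart, so the groups overlapped in 3. On the log2 scale Mcm7 fell by 0.20 in Nipbl_het (SE of 0.05, 95% interval -0.31 to -0.09, edgeR adjusted p = 0.0427), and by 0.18 when the library labelled Nipbl_het replicate 2 was omitted (adjusted p = 0.0404). Within the sets that hold all genotypes, Nipbl_het minus wild_type was -0.21 in set 2, -0.22 in set 5 (-0.18 without that library) and -0.13 in set 6. The call was lost when any of 14 single libraries was left out (wild_type replicates 3, 4, 7 and 8, Isl1_het replicates 1, 2, 3, 8 and 9, Nipbl_het replicates 1, 3, 6 and 9, and double_het replicate 6), with adjusted p from 0.0512 to 0.112 and log2 changes of -0.17 to -0.21. It was also lost without set 1, 2, 5 or 6 (adjusted p 0.127, 0.229, 0.173 and 0.0832), without the filter on low counts (0.0700) and with the erythroid marker level as a covariate (-0.16, adjusted p = 0.0562). Mcm7 shares 7.25% of its exon bases with Ap4m1 on the opposite strand, and smaller parts with Cops6, Mir25 and Mir93; whether reads were counted by strand is not given in the sources used here.

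**Figure D1:**
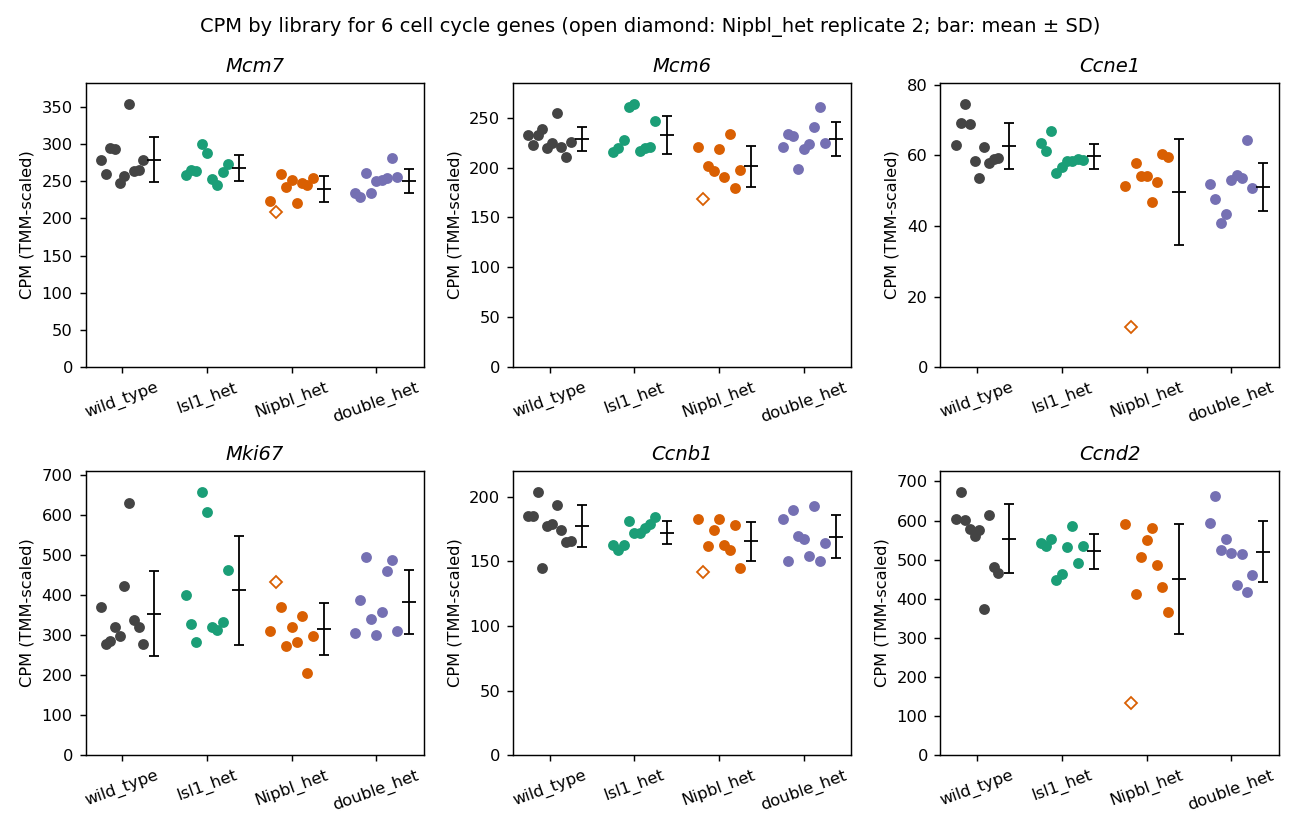
CPM after TMM scaling (y axis, from 0) of the helicase genes Mcm7 and Mcm6, cyclin E1 (Ccne1), the proliferation marker Mki67, cyclin B1 (Ccnb1) and cyclin D2 (Ccnd2), by genotype; each point is 1 library, black bars are the mean ± SD (n = 10, 9, 9 and 9), and the open diamond is the library labelled Nipbl_het replicate 2. The Nipbl_het points of Mcm7 reach from 209 to 260 against 248 to 354 in wild_type, and the open diamond lies far below all others for Ccne1 (11.3) and Ccnd2 (134).

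The other helicase genes had estimates in the same direction in Nipbl_het that did not pass the test. Mcm6 had 211 to 255 CPM in wild_type (median 225) and 168 to 234 in Nipbl_het (median 198), with 6 of 9 Nipbl_het hearts below every wild_type heart and a log2 change of -0.18 (SE 0.06, adjusted p = 0.119). Mcm3 had 217 to 259 CPM (median 228) and 161 to 222 (median 213), with 7 of 9 below every wild_type heart and a log2 change of -0.16 (SE 0.05, adjusted p = 0.114). These groups overlap in 3 and 2 hearts. Under DESeq2 on the same design, Mcm3 (-0.17, adjusted p = 0.0293) and Mcm6 (-0.19, adjusted p = 0.0463) did pass beside Mcm7. Mcm4 (-0.16), Mcm2 (-0.11) and Mcm5 (-0.11) had adjusted p of 0.233, 0.486 and 0.344. With Nipbl_het replicate 2 left out, estimates were -0.16 for Mcm6 (adjusted p = 0.122), -0.12 for Mcm3 (0.0897), -0.11 for Mcm4 (0.215) and -0.08 for both Mcm2 and Mcm5 (0.669 and 0.454). In double_het hearts the same 5 genes were nearer to wild_type, with log2 changes from -0.05 (Mcm4) to 0.01 (Mcm6).

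Among the factors that load the helicase, the loader Cdc6 had 36.3 CPM on average in Nipbl_het and 40.8 in wild_type (log2 change -0.18, SE 0.07, adjusted p = 0.214), and Cdt1 74.1 against 84.5 (-0.11, SE 0.05, adjusted p = 0.230). The GINS subunit Gins2 (-0.04), which joins the helicase at the fork, had an interval of -0.24 to 0.16 and shares 67.32% of its exon bases with Gse1 on the opposite strand. Its Nipbl_het mean was 56.6 CPM, and 59.2 without the library labelled Nipbl_het replicate 2, beside 64.4 in wild_type. Of the enzymes that supply nucleotides, the large reductase subunit Rrm1 had 262 CPM in Nipbl_het and 296 in wild_type (-0.20, SE 0.07, adjusted p = 0.121), with 6 of 9 hearts below every wild_type heart, and -0.15 (adjusted p = 0.121) without the library labelled Nipbl_het replicate 2. Its partner Rrm2 had 203 and 212 CPM (-0.04, interval -0.25 to 0.18), and 0.06 once the library labelled Nipbl_het replicate 2 was omitted. The thymidylate synthase Tyms stood at -0.16 (interval -0.41 to 0.09), and at -0.07 (adjusted p = 0.829) without that library. The flap endonuclease Fen1, which trims Okazaki fragments, had an estimate of -0.25 that was -0.13 without that library; 78.82% of its exon bases overlap an antisense gene. Pcna was at 248 ± 59.9 CPM (SD, n = 9) in Nipbl_het and 282 ± 50.6 (n = 10) in wild_type (-0.20, adjusted p = 0.365), an estimate that was -0.14 (adjusted p = 0.542) without it. With 2 surrogate variables in the fit, Mcm3 (-0.12, adjusted p = 0.0381), Cdt1 (-0.12, adjusted p = 0.0467), Rrm1 (-0.15, adjusted p = 0.0297) and the cyclin gene Ccne1 (-0.12, adjusted p = 0.0312) passed in Nipbl_het. That fit called 1332 of all tested genes against 258. With a GC offset and that library left out, Cdt1 passed as well (-0.17, adjusted p = 0.0131), in a fit that called 387 of all.

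The initiating cyclin Ccne1 had 53.6 to 74.6 CPM in wild_type (median 60.8), 54.9 to 66.8 in Isl1_het (median 58.6), 11.3 to 60.3 in Nipbl_het (median 54.0) and 40.9 to 64.3 in double_het (median 51.9). The 11.3 is the library labelled Nipbl_het replicate 2, and the next lowest of its group was 46.7. In double_het, 6 of 9 hearts were below every wild_type heart. With that library in the fit, the double_het change of -0.19 had an SE of 0.16 and an adjusted p of 0.740. Without it, Ccne1 fell by 0.23 in double_het (SE 0.07, edgeR adjusted p = 0.0396), beside 5.57% of all tested genes, and this was the only call that leaving it out added among the 43 genes in the 8 comparisons. Within sets, double_het minus wild_type was -0.03 in set 2, -0.41 in set 5 and -0.05 in set 6, so set 5 held most of this difference. Ccne2, of which 17.42% of exon bases overlap Ints8, had a change of -0.21 in double_het (SE 0.09, adjusted p = 0.285), and E2f1, the transcription factor upstream of many of these genes, one of -0.02 in double_het and -0.19 in Nipbl_het (adjusted p 0.965 and 0.383). Without that library, E2f1 was at -0.10 in Nipbl_het (adjusted p = 0.522).

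None of the 20 mitosis genes passed the test in Nipbl_het, and 19 of their 20 estimates were below 0. Only 2 of the 20 had an unadjusted p under 0.05, against 15.1% of all tested genes in that comparison, while 7 of 20 replication genes did. The 2 were the spindle checkpoint kinase Bub1b (-0.16, SE 0.06, adjusted p = 0.154) and the cytokinesis motor Kif20a (-0.11, SE 0.06, adjusted p = 0.329), which shares 29.3% of its exon bases with Cdc23 on the opposite strand. Under DESeq2, too, no mitosis gene passed. With 2 surrogate variables in the fit, Bub1b (-0.15, adjusted p = 0.0156), Cenpf (-0.17, adjusted p = 0.0145) and Top2a (-0.17, adjusted p = 0.0326) did, in the fit that called 1332 of all tested genes. The cyclin Ccnb1, partner of Cdk1 at the entry to mitosis, had 145 to 204 CPM in wild_type (median 178) and 142 to 183 in Nipbl_het (median 163). The 142 is the library labelled Nipbl_het replicate 2, the 1 heart below every wild_type heart. Its log2 change was -0.11 (interval -0.24 to 0.02). The kinase Cdk1 itself had 146 to 242 CPM in wild_type (median 178) and 113 to 230 in Nipbl_het (median 159), with a change of -0.11 (interval -0.30 to 0.07). Ccna2 (-0.09), Plk1 (-0.11), Aurka (-0.09) and Cdc20 (-0.05) had intervals that reached no lower than -0.25. The kinases Aurkb and Bub1 were at -0.01 each, and the transcription factor Foxm1 at -0.03. For Bub1 the Nipbl_het mean was 67.9 CPM with the library labelled Nipbl_het replicate 2 and 63.9 without it, beside 64.6 in wild_type. With that library left out, all 20 estimates were at or below 0, from -0.26 (Mki67) to 0 (Foxm1).

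Mki67, the chromosome surface protein used as a marker of dividing cells, was the most variable mitosis gene. It had 278 to 631 CPM in wild_type (median 320), 283 to 659 in Isl1_het (median 334), 206 to 434 in Nipbl_het (median 310) and 301 to 496 in double_het (median 359). The 4 ranges overlapped widely, and the highest values were those of wild_type replicate 7 (631) and of Isl1_het replicates 4 and 5 (659 and 608). Its log2 change was -0.17 in Nipbl_het (SE 0.16, adjusted p = 0.625), 0.24 in Isl1_het (SE 0.14, adjusted p = 0.843) and 0.11 in double_het (SE 0.16, adjusted p = 0.867). Top2a, the topoisomerase that untangles sister chromatids, had 306 to 443 CPM in wild_type (median 350) and 294 to 643 in Nipbl_het (median 377). The 643 is the library labelled Nipbl_het replicate 2, and the change of -0.03 became -0.16 without it (SE 0.07, adjusted p = 0.230).

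The D-type cyclins, which carry growth signals to the cell cycle, had estimates below 0 in Nipbl_het with and without that library, nearer to 0 without it. At an unadjusted p under 0.05 there were 0 of 3 with it, beside 15.1% of all tested genes, and 2 of 3 without it, beside 14.7%. Ccnd2 had 374 to 674 CPM in wild_type (median 577) and 134 to 590 in Nipbl_het (median 486). Its log2 change was -0.29 (SE 0.15, adjusted p = 0.345) with the library and -0.17 (SE 0.06, adjusted p = 0.155) without it. Ccnd1 had 188 to 243 CPM and 34.1 to 219, with a change of -0.27 (SE 0.17) that was -0.14 (SE 0.06, adjusted p = 0.216) without it. Ccnd3 had 406 to 740 and 312 to 641 CPM, with changes of -0.12 and -0.07. Reads of Ccnd1 are uncertain, since 23.36% of its exon bases overlap LTO1 on the other strand.

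**Figure D2:**
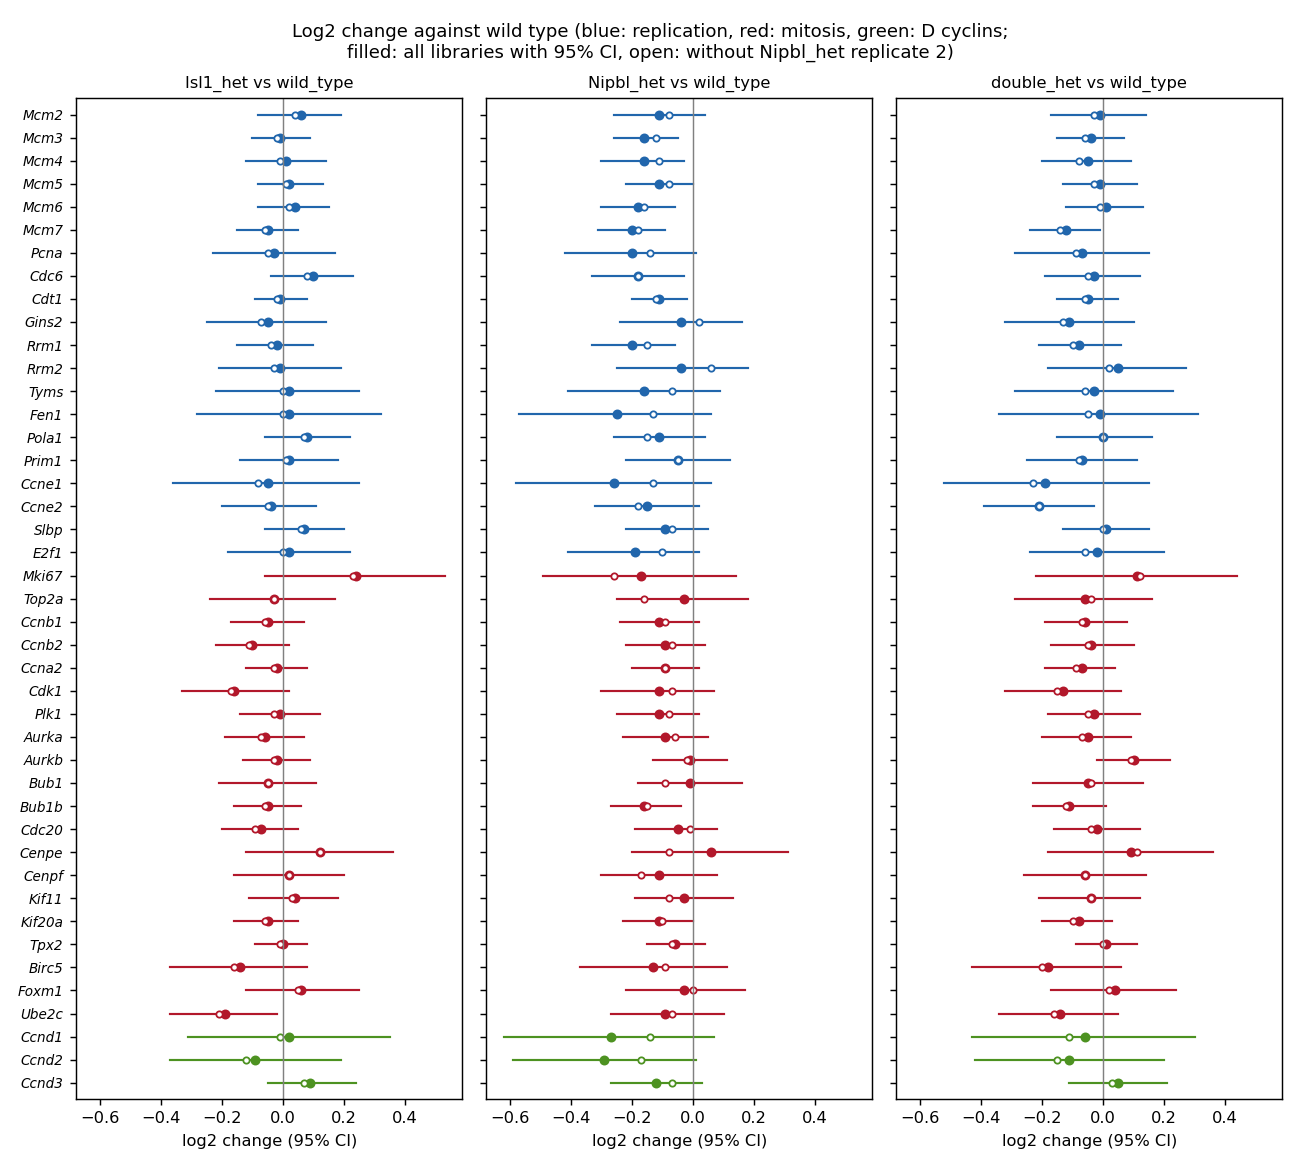
Log2 change against wild_type (x axis) for each of the 43 genes (rows) in Isl1_het, Nipbl_het and double_het; filled points and lines are the edgeR estimate and its 95% interval with all libraries, open points the estimate without the library labelled Nipbl_het replicate 2. In the middle panel 42 of 43 filled points lie left of 0, against 25 in the left and 33 in the right panel.

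In double_het hearts, none of the 43 genes passed the test, beside 2.6% of all tested genes. Unadjusted p-values under 0.05 were found for 2 of 43 (Mcm7 and Ccne2), against 11.6% of all tested genes, and for 5 of 43 against 19.2% when Nipbl_het replicate 2 was omitted. DESeq2 also called none of the 43, and 521 of all tested genes. With 2 surrogate variables Bub1b passed (-0.12, adjusted p = 0.0408), beside 1779 of all. With a GC offset and without that library, Ccne1 (-0.24, adjusted p = 0.0249) and Ccne2 (-0.20, adjusted p = 0.0353) did, beside 909 of all. Estimates were below 0 for 33 of 43, beside 50.5% of all. Within sets 2, 5 and 6, double_het minus wild_type was below 0 for 30, 23 and 12 of 43 genes, set 6 holding 1 double_het heart, beside 47.6%, 46.8% and 47.4% of all. The median was -0.038 for replication genes, -0.052 for mitosis genes and -0.002 for all tested genes. Mcm7 had a change of -0.12 (SE 0.06, adjusted p = 0.375), with 8 of 9 hearts below the wild_type mean and 3 of 9 below every wild_type heart. The inhibitor of apoptosis and chromosomal passenger Birc5 stood at -0.18 (interval -0.43 to 0.06), Ube2c at -0.14 and Cdk1 at -0.13 (interval -0.32 to 0.06). Of the 43 intervals, 42 lay wholly within 0.5 of 0 on the log2 scale, a 1.41-fold change, and the exception was Ccne1, which reached -0.52.

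In Isl1_het hearts, no gene of the 43 passed, as for all 15046 tested genes (0%), and none without the library labelled Nipbl_het replicate 2 either, beside 0.0133%. At an unadjusted p under 0.05, 1 of 43 (Ube2c) was found, against 5.89% of all tested genes, and 2 of 43 against 11.8% with Nipbl_het replicate 2 left out. DESeq2 called none of the 43, and 11 of all tested genes. The medians were 0.011 for replication genes and -0.041 for mitosis genes. The estimates were below 0 for 25 of 43, beside 51.2% of all. Within sets 1, 2, 5 and 6, 35, 12, 23 and 7 of 43 were below 0, beside 48.9%, 48.3% and 46.7% of all tested genes in sets 2, 5 and 6. The share of all tested genes was not computed for set 1, so nothing is read from its count. Ube2c, which targets mitotic cyclins for destruction, had 165 to 352 CPM in wild_type (median 243) and 180 to 255 in Isl1_het (median 191), with a change of -0.19 (SE 0.09, adjusted p = 0.835). It shares 22.77% of its exon bases with the troponin gene Tnnc2 on the opposite strand. All 20 replication genes had intervals within 0.5 of 0 on the log2 scale, as did 19 of 20 mitosis genes, all but Mki67 (-0.06 to 0.53).

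In 4 further comparisons (double_het against each single heterozygote, the interaction, and Isl1 loss averaged) none of the 43 genes passed. For double_het against Isl1_het this was 0 of 43 beside 0.957% of all tested genes, with 0 of 43 at an unadjusted p under 0.05 (7.49% of all) and 34 of 43 estimates below 0 (48.9% of all). Without the library labelled Nipbl_het replicate 2 it was 0 beside 2.4%, with 2 of 43 at an unadjusted p under 0.05 (11.8% of all). For double_het against Nipbl_het it was 0 of 43 beside 0%, with 4 at an unadjusted p under 0.05 (9.01% of all) and 9 of 43 estimates below 0 (53.8% of all). The 4 were Mcm6, Mcm3, Cdc6 and Ccnd3, all with estimates above 0. Mcm6 had the largest difference of these at 0.19 (SE 0.06, adjusted p = 0.413). The interaction, which asks whether the effect of Nipbl loss differs with Isl1 genotype, called 0 of 43 beside 0%, with 0 at an unadjusted p under 0.05 (2.73% of all) and a median interval half-width of 0.21. Its estimates were below 0 for 6 of 43 genes (50.5% of all), and for 6 without the library labelled Nipbl_het replicate 2 (44.1% of all). For the Isl1 effect averaged over Nipbl genotypes it was 0 of 43 beside 0.173% (0.372% without the library labelled Nipbl_het replicate 2). Unadjusted p-values under 0.05 were found for Mcm6, Cdc6, Mki67 and Ccnd3, 4 of 43 against 12.2% of all, and 12 of 43 estimates were below 0, against 55%. With Nipbl_het replicate 2 left out these were 7 of 43 against 16.7%, and 20 of 43 against 52%. DESeq2 called none of the 43 in any of these 4 comparisons, and 234, 0, 0 and 115 of all 15046 tested genes in the same order. These comparisons share libraries with those against wild_type.

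Averaged over both Isl1 genotypes, Nipbl loss gave 1 call of 43, again Mcm7, beside 4.02% of all tested genes (1.36% as lower). At an unadjusted p under 0.05 there were 9 of 43, against 14.9% of all. Mcm7 had 244 CPM on average in the 18 hearts with a Nipbl +/- label and 274 in the 19 without, and 17 of the 18 lay below the mean of the others. The fall was -0.14 on the log2 scale (SE 0.04, adjusted p = 0.0492), and -0.13 when the library labelled Nipbl_het replicate 2 was omitted (SE 0.04, adjusted p = 0.03, beside 6.93% of all genes). The median change was -0.104 for replication genes, with 19 of 20 below 0, and -0.041 for mitosis genes, with 18 of 20 below 0, beside 48.3% of all tested genes below 0. Cdc6 (-0.16, SE 0.06, adjusted p = 0.124), Ccne2 (-0.16, adjusted p = 0.202) and Rrm1 (-0.13, adjusted p = 0.194) did not pass. With 2 surrogate variables these 3 and Ccne1, Bub1b, Cenpf and Birc5 passed too (adjusted p from 0.00924 to 0.0498), beside 2057 of all tested genes against 605. With a GC offset Cdt1 (0.0465) and Ccne2 (0.0388) passed beside Mcm7, and 603 of all. The Mcm7 call was kept when wild_type replicate 3, 5, 6, 9 or 10, Nipbl_het replicate 2, 4, 5, 7 or 8, or double_het replicate 2, 3 or 8 was left out, and lost when any of the other 24 libraries was (highest adjusted p 0.106, changes of -0.12 to -0.15), without any of sets 1, 2, 5 and 6, without the filter (0.0813), and with the erythroid level as a covariate (change of -0.11).

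Lists of other cell cycle genes were counted in the same fit: 43 replication genes, 41 mitosis genes, 28 regulators and 7 inhibitors of cyclin-dependent kinases, 119 in all, of which 118 were tested. In Nipbl_het, 1 of them passed, Cdkn1c, the imprinted kinase inhibitor p57, beside 1.71% of all tested genes. Estimates were below 0 for 98 of the 118 (83.1%), beside 47.8% of all tested genes. By list, they were below 0 for 41 of 43 wider replication genes (median -0.141), 36 of 41 wider mitosis genes (median -0.075) and 19 of 28 regulators (median -0.051). Of the 6 kinase inhibitors tested, 2 were below 0 (median 0.114), Cdkn1c among them, beside the same 47.8%. Without the library labelled Nipbl_het replicate 2, 1 of 6 was below 0 (median 0.047, highest estimate 0.13), beside 53.7% of all tested genes. A list of 6 genes is too short to read a direction from. The DNA ligase of Okazaki fragments, Lig1 (-0.22, SE 0.07, adjusted p = 0.0768), the replication factor Mcm10 (-0.22, SE 0.07, adjusted p = 0.111) and the passenger complex scaffold Incenp (-0.21, SE 0.07, adjusted p = 0.123) missed the threshold. No wider gene passed in Isl1_het or double_het; unadjusted p-values under 0.05 were found for 2 and 5 of them, against 5.89% and 11.6% of all tested genes. With Nipbl_het replicate 2 left out these were 9 and 21, against 11.8% and 19.2%, and Cdkn1c passed in double_het. With all libraries, DESeq2 called 0 in each and 3 in Nipbl_het, beside 11, 521 and 459 of all 15046 tested genes in Isl1_het, double_het and Nipbl_het. The averaged Nipbl effect had 1 call among the 118 wider genes, Cdkn1c, beside 4.02% of all tested genes. This call was lost without set 5 (-0.17, edgeR adjusted p = 0.366) and without set 2 (-0.44, adjusted p = 0.1). It was also lost without wild_type replicate 4, Isl1_het replicate 6 or 7, or double_het replicate 7. With the library labelled Nipbl_het replicate 2 left out the averaged effect had 5 calls, beside 6.93%, all lower: Cdkn1c, the single-strand binding protein Rpa1 (-0.11, adjusted p = 0.0270), the DNA methylation maintenance factor Uhrf1 (-0.15, adjusted p = 0.0277), the atypical E2F factor E2f8 (-0.27, adjusted p = 0.0290) and the Cdk1-inhibiting kinase Wee1 (-0.17, adjusted p = 0.0399).

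Cdkn1c was expressed at 2930 to 5450 CPM in wild_type (median 4000), 3060 to 4480 in Isl1_het (median 3570), 1270 to 3620 in Nipbl_het (median 2780) and 2380 to 3890 in double_het (median 2850). Every Nipbl_het and double_het heart was below the wild_type mean, and 6 of 9 in each were below every wild_type heart. In Nipbl_het its log2 level fell by 0.47 (SE 0.13, adjusted p = 0.0464), and by 0.38 when the library labelled Nipbl_het replicate 2 was omitted (SE 0.1, adjusted p = 0.0346). In double_het the change was -0.37 (SE 0.13, adjusted p = 0.164), and without that library it fell by 0.40 (SE 0.1, adjusted p = 0.013). Nipbl_het minus wild_type was -0.40 in set 2, -0.95 in set 5 (-0.68 without that library) and -0.17 in set 6, and without set 5 the fitted change was -0.22 (adjusted p = 0.361). The call was also lost without set 1 (adjusted p = 0.0822), without set 2 (0.236), with sets 2, 5 and 6 alone (0.082), without the filter (0.057), with at least 10 counts in every library (0.0547) and with the erythroid covariate (0.0589), at changes of -0.46 to -0.52. The Nipbl_het call was kept in 7 of 37 fits with 1 library left out (wild_type replicates 1, 6 and 7, Isl1_het replicate 3, Nipbl_het replicates 2 and 8, and double_het replicate 8), and adjusted p over the 37 ran from 0.0135 to 0.144. The related inhibitors Cdkn1a (0.43) and Cdkn1b (0.60) had estimates above 0 in Nipbl_het that were 0.09 and 0.04 without the library labelled Nipbl_het replicate 2.

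That library was outside the range of the other 36 for 28 of the 43 genes, 24 below and 4 above. Of all tested genes it was outside that range for 57.7%, 27.7% below and 30% above. The 24 were 15 of 20 replication genes, 6 of 20 mitosis genes and all 3 D cyclins. Ccnd1 had 34.1 CPM there against 172 to 219 in the other 8 Nipbl_het hearts, Ccne1 11.3 against 46.7 to 60.3, Fen1 21.4 against 77.1 to 103, and Rrm2 88.5 against 207 to 230. The 4 above the range were Top2a (643 against 294 to 387), Bub1 (99.8 against 51.9 to 71.9), Cenpe (110 against 42.2 to 68.2) and Cenpf (149 against 70.1 to 127). So the mean log2 CPM of the replication genes was 6.01, against 6.55 to 6.74 in the rest of the group, while that of the mitosis genes was 7.01, against 6.91 to 7.03. Across all tested genes, the log2 difference of this library from the rest of its group went with GC content. Its median was 0.18 over the 3692 with the lowest transcript GC and -0.14 over the 3690 with the highest. Among the 43 genes the median was below 0 on both sides, -0.36 over the 22 with higher GC and -0.24 over the 21 with lower GC. The 4 high genes have a GC content of 41.0 to 43.4%, but Rrm1 (43.3%), Pcna (45.3%) and Rrm2 (46.0%) were low, at -0.58, -0.92 and -1.29. Its summed neural markers were at 93.0 CPM, against 253 or more in every other library. The part of these in the result was not tested.

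**Figure D3:**
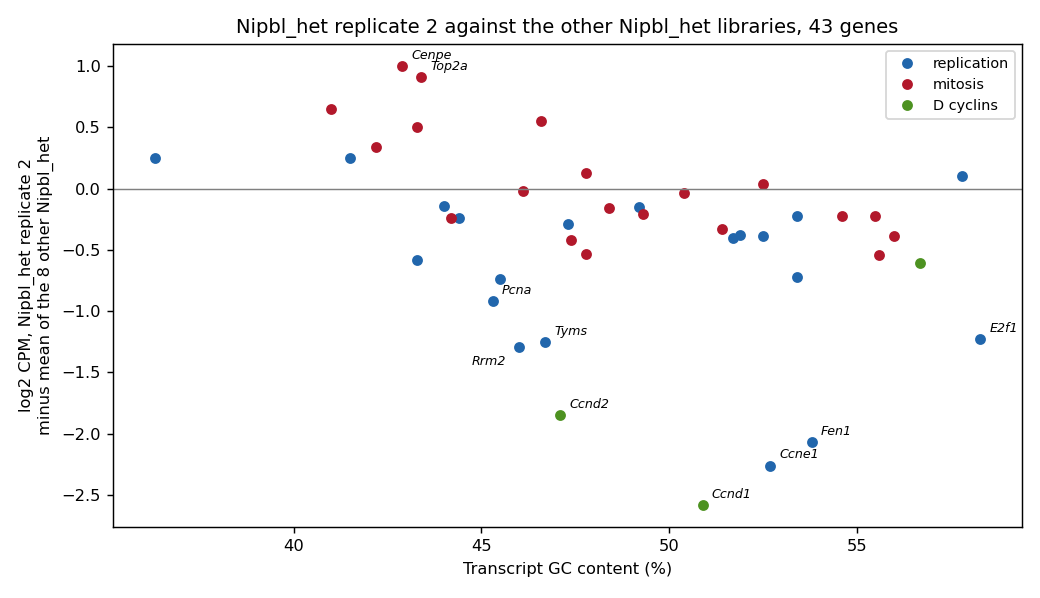
Log2 CPM of the library labelled Nipbl_het replicate 2 minus the mean of the 8 other Nipbl_het libraries (y axis) against the GC content of the transcript in percent (x axis), 1 point per gene, coloured by list. D cyclins and replication genes reach down to -2.58 (Ccnd1), and mitosis genes of low GC reach up to 1.00 (Cenpe).

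The set term passed the test for 19 of 43 genes (44.2%), 11 of 20 replication genes, 7 of 20 mitosis genes and Ccnd3, beside 38.2% of all tested genes. Without the library labelled Nipbl_het replicate 2 it passed for 28 of 43, beside 55.7% of all. The licensing factor Cdt1 had 86.8 to 92.2 CPM in the wild_type hearts of set 1, 84.2 to 90.6 in set 2, 81.7 to 84.6 in set 5 and 66.3 to 79.3 in set 6, and the set term for it had an edgeR adjusted p of 4.79e-06. Pola1 ran the other way, with 25.8 to 33.1 CPM in set 1 and 40.5 to 41.4 in set 6 (adjusted p = 0.000102), as did the spindle motor Kif11, with 75.2 to 86.3 and 109 to 116 (adjusted p = 0.000128). Wild-type ranges of sets 1 and 6 do not overlap for any of the 3. These genes are among those with the smallest p of the set term, which was fitted on the same hearts. The separation is therefore no further evidence, and how many of the 43 genes show it was not counted. GC content moved with the sets: the 21 of the 43 genes with lower GC had a median log2 difference of 0.21 between sets 6 and 1, and the 22 with higher GC one of -0.02. These medians were 0.10 and 0.03 between sets 2 and 1, and 0.02 and -0.07 between sets 5 and 1, so of sets 2, 5 and 6 the last had the widest gap. In set 7, a single heart, the fitted differences from set 1 were -0.55 for Cdt1, 0.76 for Pola1 and 0.75 for Kif11. Cdt1 is among the high (57.8%) and Pola1 and Kif11 among the low (41.5% and 42.2%). With a GC offset in the fit, the set term passed for 16 of 43, and for 5326 of all 15046 tested genes.

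Of the 20 replication genes, 7 rose with the level of erythroid markers in a library and 13 did not pass. When that level was added to the fit as a term and that term was tested (the covariate was planned, the test of it was added after seeing the data), 10 of 43 genes rose with it and none fell, beside 3.54% of all tested genes rising and 1.49% falling. The 10 were 7 replication genes (Tyms, Slbp, Fen1, Mcm7, Pcna, Mcm5 and Prim1), the kinases Aurka and Aurkb, and Ccnd3. Per doubling of the erythroid level, the log2 level of Tyms rose by 0.121 (SE 0.023, adjusted p = 0.000734), Mcm7 by 0.044 (SE 0.011, adjusted p = 0.0115) and Aurkb by 0.045 (SE 0.012, adjusted p = 0.0199). Mki67 had a slope of 0.099 (SE 0.034, adjusted p = 0.0768) that passed without the library labelled Nipbl_het replicate 2 (0.138, SE 0.027, adjusted p = 0.000569). Without that library 12 of 43 passed, beside 5.08% rising, and without wild_type replicate 7 as well, 6 of 43, beside 3.07%. Of the 20 replication genes, 7 passed without the first library and 3 without both. That wild_type heart had the most erythroid marker reads, 10.6% of its counts, and the highest mean of the replication genes (7.05, others 6.01 to 6.89). The summed erythroid markers had a median of 10600 CPM in wild_type (1860 to 106000), 14600 in Isl1_het (820 to 48300), 6750 in Nipbl_het (488 to 23400) and 15300 in double_het (1310 to 54100), so the Nipbl_het group had the lowest median. With the erythroid level in the fit, no gene of the 43 passed in Nipbl_het, and Mcm7 was at -0.16 (SE 0.04, adjusted p = 0.0562) against -0.20 without it.

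**Figure D4:**
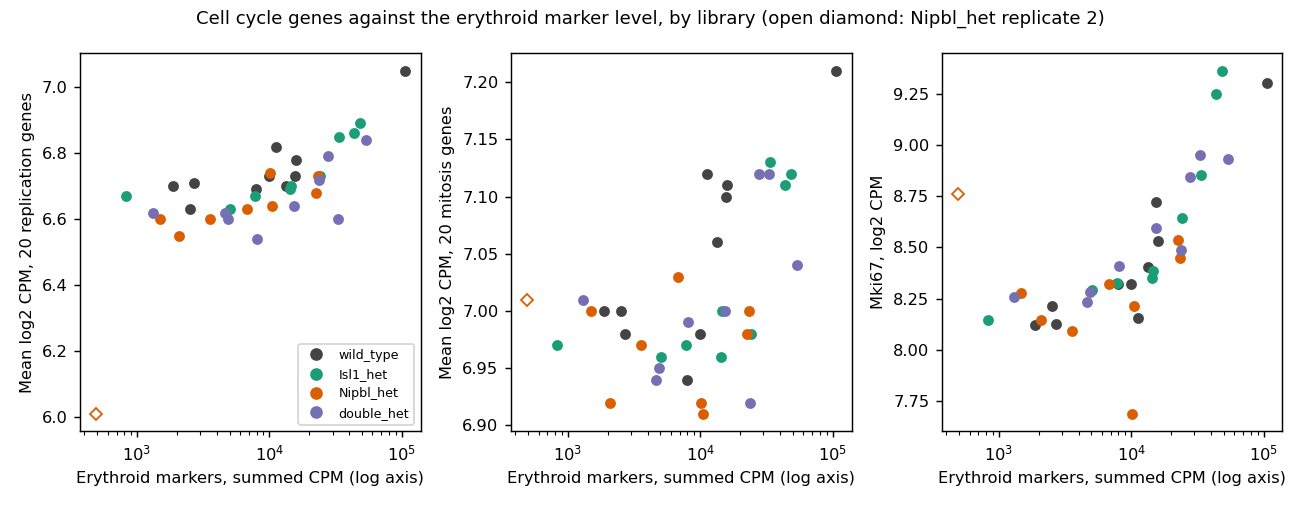
Mean log2 CPM of the 20 replication genes, of the 20 mitosis genes, and log2 CPM of Mki67 (y axes) against the summed CPM of 6 erythroid markers (x axes, log scale), 1 point per library, coloured by genotype; the open diamond is the library labelled Nipbl_het replicate 2. The library with the most erythroid reads, wild_type replicate 7, has the highest replication mean at 7.05, and the open diamond, with the fewest, the lowest at 6.01.

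The replication genes moved together from heart to heart. After removal of genotype and set, the mean of the 20 genes had an SD of 0.124 log2 units over the 37 libraries, against 0.045 if the 20 had varied independently, and 0.080 against 0.030 once the library labelled Nipbl_het replicate 2 was omitted. The mean of the 20 mitosis genes had an SD of 0.073 against 0.039, and 0.074 against 0.035 without that library. These values were not computed for other lists or for all tested genes. Whether moving together is particular to cell cycle genes was therefore not tested. By group, the replication mean was 6.75 ± 0.12 (SD, n = 10) in wild_type, 6.74 ± 0.10 (n = 9) in Isl1_het, 6.58 ± 0.22 (n = 9) in Nipbl_het, 6.65 ± 0.07 (n = 8) without that library, and 6.66 ± 0.10 (n = 9) in double_het. The mitosis mean was 7.05 ± 0.08, 7.02 ± 0.07, 6.97 ± 0.04 and 7.01 ± 0.07 in the same order of the 4 groups. Of the 43 genes, group means differed most for Mki67 (1.30-fold between the highest and the lowest genotype) and least for Kif20a (1.04-fold).

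**Figure D5:**
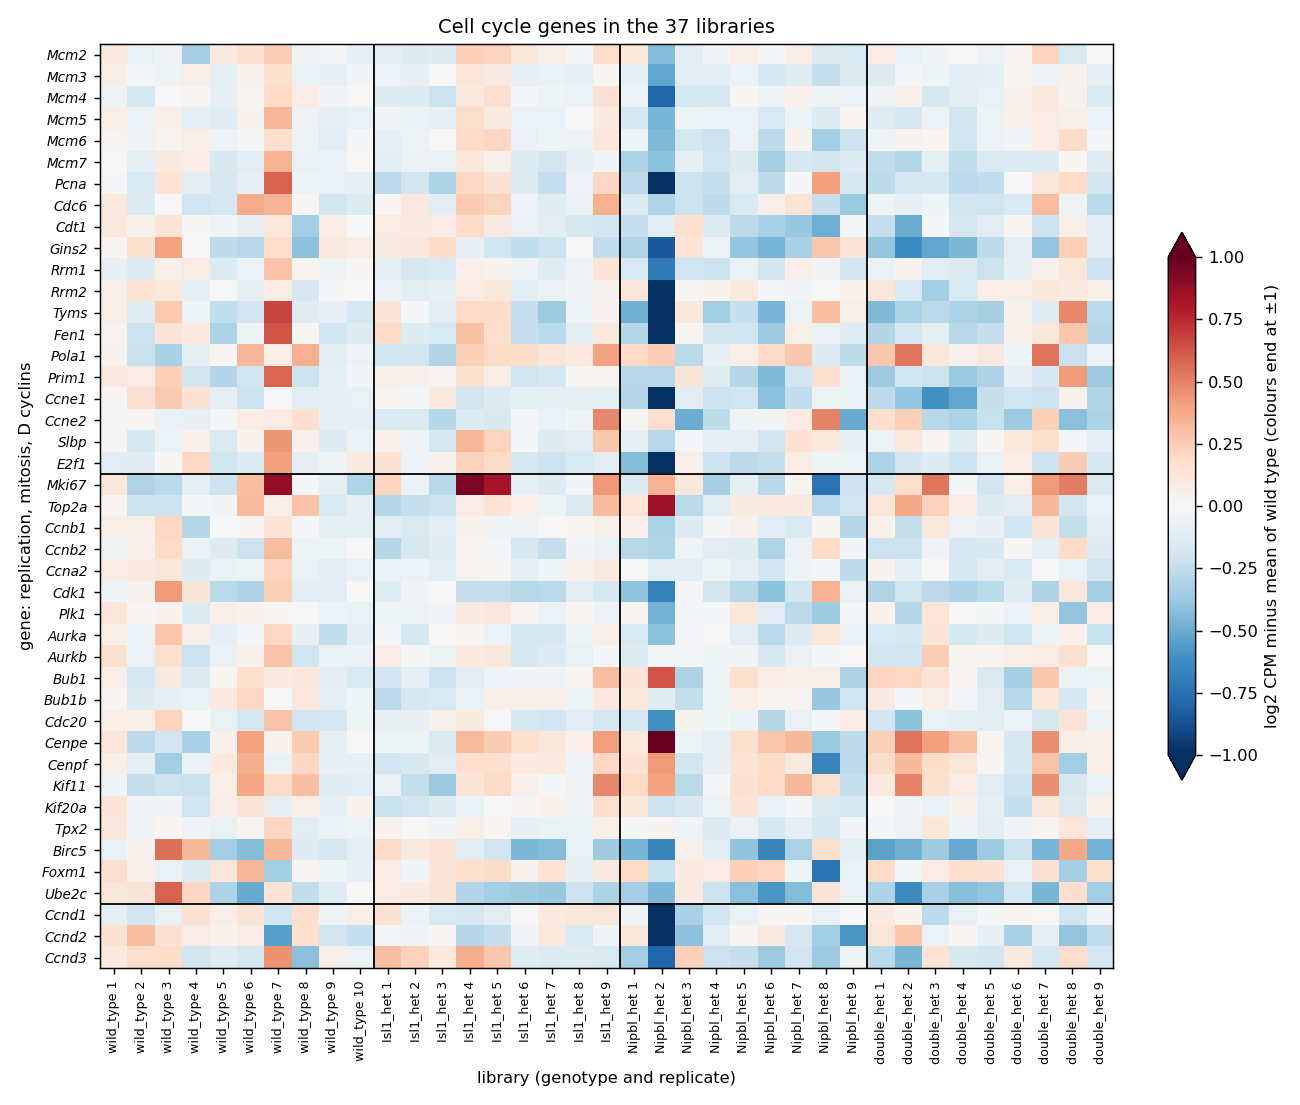
Log2 CPM of each of the 43 genes (rows) minus its mean over the 10 wild_type libraries, for all 37 libraries (columns), with colours that end at ±1; lines separate genotypes and the replication, mitosis and D cyclin genes. The column of the library labelled Nipbl_het replicate 2 is dark blue for D cyclins and many replication genes and red for Top2a, Bub1, Cenpe and Cenpf, and that of wild_type replicate 7 is red for most replication genes and Mki67.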

How the data were processed

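The deposited file holds whole-number read counts by gene symbol and library, not normalized by the authors. Per the submitters' processing notes STAR, featureCounts and the builds GRCm38 and mm10 were used; versions, annotation and strand setting are not given in the sources used here. Each of the 37 libraries has 1 column, with 0 columns left over. Low counts were removed with filterByExpr (a minimum of 10, and 15 in total, grouped by genotype). All libraries, TMM-scaled, entered 1 quasi-likelihood fit in R 4.3.3 (edgeR 4.0.16, limma 3.58.1) with genotype and set as factors. The term for set 7 absorbs its 1 heart, double_het replicate 2, so that 8 hearts carry the double_het comparisons. Each two-sided test was adjusted over 15046 genes per comparison (Benjamini-Hochberg, threshold 0.05). Standard errors came from the F statistic. CPM are after TMM scaling, and log2 CPM use a prior count of 2. Depth was 23356831 to 50974736 counts per library. No pair among 153 pairs within a group agreed within sampling noise. Exon lengths, GC content and overlaps came from GENCODE M21, and promoters from RefSeq (Python 3 with pandas). The model was tested on simulated data.

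The 43 genes, the wider lists, the tests and the rule for named genes were chosen with earlier results of these data known. That rule allowed any of the 43, up to 4 genes per direction and comparison from the wider lists with the smallest p past the threshold, and Nipbl, Isl1 and marker genes as checks. Lig1, Mcm10, Incenp, Cdkn1a and Cdkn1b, and Rpa1, Uhrf1, E2f8 and Wee1, named from the fit without Nipbl_het replicate 2, fall outside it and were named after their values were seen. Alternatives were no set term, the replicate number as a block, DESeq2 1.42.0 and its size factors, scaling without erythroid genes, other filters, 2 surrogate variables (sva 3.50.0), an erythroid covariate, leaving out sets or single libraries, and, added after seeing the data, a GC offset and the test of the erythroid term itself. The replicate numbers of the labels do not pair hearts: of 54 pairs of libraries with the same number, 17 had deviations correlated above 0.1, and 3 of 37 libraries correlated best with their own number.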

Additional observations from a re-analysis of the deposited data

Results flagged for a closer look

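Within each genotype, the highest or lowest library was compared with its nearest neighbour by Dixon's ratio for each of the 43 genes and Cdkn1c; 29 values in 176 groups lay apart, where chance alone gives about 1 in 20 groups. These values share libraries. The library labelled Nipbl_het replicate 2 gave 13 of them. It was lowest for Mcm3 (161 CPM), Mcm4 (80.5), Mcm5 (156), Rrm1 (181), Rrm2 (88.5), Fen1 (21.4), Ccne1 (11.3), E2f1 (20.6), Ccnd1 (34.1) and Ccnd2 (134), and highest for Top2a (643), Bub1 (99.8) and Cenpe (110). Each of these genes thus separated this heart from the other 8 of its group.

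wild_type replicate 7, the heart with the most erythroid reads, was highest in its group for Mcm5 (271 CPM), Mcm7 (354), Pcna (419), Rrm1 (360), Tyms (119), Fen1 (153), Slbp (90.8) and Mki67 (631). The next highest wild_type hearts had 225, 295, 307, 313, 89.2, 108, 69.2 and 422 CPM. double_het replicate 8, also high in erythroid reads (5.41% of its counts), was highest for Tyms (104), Prim1 (73.8), Cdk1 (195) and Birc5 (181). Single values were those of double_het replicate 7 for Cdc6 (50.2), wild_type replicate 8 for Cdt1 (66.3, lowest), and Isl1_het replicate 9 for Ccne2 (59.5) and Bub1 (79.8). Erythroid reads made up 3.34% of the counts of that Isl1_het heart.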

How the results depend on the processing

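No estimate of a gene that passed changed sign under any alternative run. In Nipbl_het against wild_type, where 1 of 43 genes passed, the count was 3 with DESeq2, 8 with 2 surrogate variables and 2 with a GC offset without Nipbl_het replicate 2, in fits that called 459, 1332 and 387 of all tested genes against 258. It was 0 without the filter, with the erythroid covariate, without set 1, 2, 5 or 6, and with sets 2, 5 and 6 alone, where 229, 265, 118, 31, 124, 175 and 118 of all genes passed. For Nipbl loss averaged (1 of 43), it was 8 with 2 surrogate variables, 3 with a GC offset and 5 with that offset without Nipbl_het replicate 2 (2057, 603 and 1064 of all against 605), and 0 without the filter, with the erythroid covariate, without set 1, 2, 5 or 6, and with sets 2, 5 and 6 alone (509, 654, 516, 152, 275, 401 and 515 of all). In double_het against wild_type (0 of 43) it was 1 with 2 surrogate variables and 2 with a GC offset without Nipbl_het replicate 2 (1779 and 909 of all against 391). Of the 43 estimates in Nipbl_het, 37 (without set 5) to 42 were below 0 over 16 alternatives, and in double_het 28 to 37. These 16 include the GC offset without Nipbl_het replicate 2, but not the fits that left out each library in turn. The set term passed for 11 genes without set 1 and 7 without set 2, against 19, beside 3460 of 15194 and 1420 of 15006 of all against 5745 of 15046. The cause of these changes was not tested. With each library left out in turn, counts ranged from 0 to 1 in Nipbl_het, in double_het and for Nipbl loss averaged (167 to 410, 244 to 839 and 436 to 1044 of all genes), from 14 to 28 for the set term (4439 to 8393 of all), and stayed at 0 elsewhere. With the replicate number as a block in place of the set number, Nipbl_het and Nipbl loss averaged each kept 1 call (355 and 993 of all genes) and the other comparisons 0 (610 of all in double_het against wild_type, 151 against Isl1_het, 9 for Isl1 loss averaged and 0 in the rest); the numbers are not known to pair hearts. The lowest count of the 43 genes was 413, and their median interval half-width was 0.15 log2 units in Nipbl_het.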
